A study of Mus musculus with 20 samples.

Results

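Genes of blood vessels and of the signals that act on them were followed across 20 mouse breast tumors, 10 of the 43346 genes in the count table. They are Pecam1, Cdh5, Kdr, Flt1, Tek, Tie1, Eng, Vwf, Vegfa and Angpt2, and they were found in the table by gene symbol. All 10 were counted in all 20 tumors and all 10 passed the filter on low counts. The tumors arose spontaneously in female [BALB/c-neuT x FVB/J] F1 mice, 1 tumor per mouse, from BALB/c males carrying the neuT transgene and wild-type FVB/J females. Every tumor shares the same driver, an activated rat Her2/neu oncogene under the mouse mammary tumor virus promoter, and no normal mammary gland or transgene-free sample is part of the series. Mice were killed when a tumor had reached a set size, at up to 20 weeks of age, and no age is given for single mice. RNA was prepared from small frozen pieces of whole tumor, so vessel, stromal, blood and cancer cells were measured together. Sample names divide the tumors into 9 named Lo and 11 named Hi, and the sources used here do not say what Lo and Hi mean. Total counts ran from 38765682 to 65465755 per tumor, and a pair of genes over a ribosomal RNA locus took 6.29% to 27.7% of them.

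Endothelial cells line blood vessels and are held together by adhesion proteins such as PECAM1 (CD31) and VE-cadherin, which Cdh5 encodes. Their growth is driven mainly by VEGF-A, the product of Vegfa, a ligand that cancer and stromal cells secrete and whose gene is a known target of the hypoxia-inducible factors. VEGF-A signals through the receptor VEGFR2 (Kdr), while VEGFR1 (Flt1) binds the same ligand tightly and can hold it back. Tek encodes TIE2, the receptor of the angiopoietins, Tie1 its partner receptor, and Angpt2 the angiopoietin released by endothelial cells of vessels that are being remodeled. Eng encodes endoglin, a coreceptor of the TGF-beta family on endothelial and some stromal cells, and Vwf the clotting factor von Willebrand factor, stored in endothelial cells and platelets.

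In the mm10 coordinates of the files, the adhesion genes Pecam1 (ENSMUSG00000020717) and Cdh5 (ENSMUSG00000031871) lie at chr11:106654217-106750628 and chr8:104101625-104144502. The VEGF receptor genes Kdr (ENSMUSG00000062960) and Flt1 (ENSMUSG00000029648) are both on chr5, at chr5:75932827-75978458 and chr5:147561604-147726011. Tek (ENSMUSG00000006386) and Tie1 (ENSMUSG00000033191) are both on chr4, at chr4:94739289-94874976 and chr4:118471191-118490061. Eng (ENSMUSG00000026814) is at chr2:32646595-32682669 and Vwf (ENSMUSG00000001930) at chr6:125546774-125686679. The ligand genes Vegfa (ENSMUSG00000023951) and Angpt2 (ENSMUSG00000031465) are at chr17:46016993-46032377 and chr8:18690263-18741562. Exons of Eng overlap exons of Fpgs on the other strand in the GENCODE M21 annotation, and since the strand setting of the counting is not given, reads of the pair cannot be told apart. Angpt2 lies inside an intron of Mcph1 and an antisense gene lies within Cdh5, in neither case with shared exons.

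Per length, Vegfa was the most abundant of the 10 and Vwf the least. RPKM, the number of reads scaled to the listed exonic length of the gene and to the total count of the tumor, was computed from the counts. The level of Vegfa was 31.5 ± 11.96 RPKM (SD, n = 20), from 17.95 in tumor Hi 5 to 59.5 in Hi 10. Eng followed at 8.66 ± 4.83 RPKM, from 3.70 in Lo 3 to 26.5 in Hi 1. The adhesion genes came next, Cdh5 at 5.21 ± 1.33 RPKM (3.63 to 7.75) and Pecam1 at 3.66 ± 0.838 RPKM (2.04 to 5.33). These 4 genes kept their order in 20 of 20 tumors at each step, although the ranges of neighbors overlapped.

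The receptor genes lay lower. Kdr was at 2.20 ± 0.552 RPKM (1.30 to 3.26) and Tie1 at 2.09 ± 0.570 RPKM (0.985 to 3.01). Kdr was above Tie1 in 14 of 20 tumors, so this pair was not separated beyond its spread. The listed lengths of Kdr, Flt1 and Cdh5 are shorter than their GENCODE M21 exon unions, and with the union lengths Kdr was at 1.77 RPKM, below Tie1 in 18 of 20 tumors, while the other genes kept their order, Flt1 above Angpt2 in 14 of 20. Flt1 was at 1.51 ± 0.362 RPKM (0.963 to 2.19), below Tie1 in 19 of 20 tumors. Angpt2 was at 1.20 ± 0.376 RPKM (0.622 to 2.0), below Flt1 in 17 of 20. Tek, at 0.746 ± 0.242 RPKM (0.303 to 1.25), was below Angpt2 in 17 of 20. Vwf, at 0.128 ± 0.0438 RPKM (0.0554 to 0.224), was below Tek in 20 of 20 tumors, and this was the one step of the order at which the ranges did not overlap. The weakest genes rested on few reads, with 57 to 211 counts per tumor for Vwf and 82 to 327 for Tek, against 3247 to 15201 for Vegfa.

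**Figure D1:**
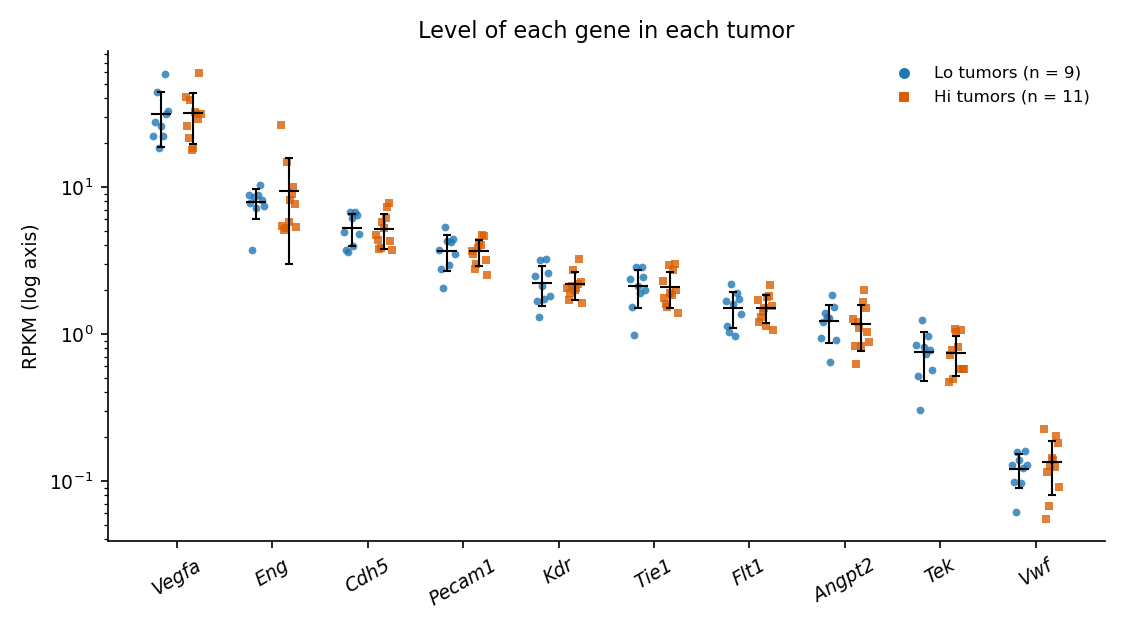
Level of each of the 10 genes in RPKM (log axis), 1 point per tumor, with Lo tumors in blue circles and Hi tumors in orange squares. Black marks are the group mean ± SD. Lo and Hi overlap for every gene, and 1 Hi tumor stands at 26.5 RPKM of Eng.

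The 10 genes varied more between tumors than most genes did. The SD of log2 CPM (counts scaled to a common library size with TMM factors) over the 20 tumors was 0.34 for Kdr, 0.35 for Flt1, 0.36 for Pecam1, 0.38 for Cdh5 and 0.40 for Tie1, against a median of 0.23 over 17492 genes. It was 0.48 for Tek, 0.49 for Angpt2, 0.51 for Vegfa, 0.52 for Vwf and 0.59 for Eng. The SDs of Vegfa and Eng were above those of 86.8% and 91.2% of the genes.

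A few tumors held most of the extreme values. Tumor Lo 3 had the lowest CPM of 5 of the genes, namely Pecam1, Kdr, Tek, Tie1 and Eng. Tumor Lo 4 had the highest CPM of 6, namely Pecam1, Cdh5, Kdr, Flt1, Tek and Tie1. Those 6 genes were all above their own medians in 5 tumors (Lo 4, Lo 6, Lo 8, Lo 9 and Hi 9), all below them in 5 others (Lo 2, Lo 3, Lo 7, Hi 2 and Hi 11), and mixed in the remaining 10. Eng stood apart in tumor Hi 1, at 102.3 CPM, where the next tumors had 58.1 CPM (Hi 5) and 38.7 CPM. The overlapping gene Fpgs was at 48.1 CPM in Hi 1, within its range of 31.5 to 49.0 CPM over the tumors. Its part in the Eng value was not tested.

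Ratios between partner genes showed which members kept step. The ratio of the VEGF receptors, Flt1 to Kdr in RPKM, moved least, from 0.549 to 0.860 with a median of 0.677. Tie1 to Tek ran from 1.85 to 4.91. Between the ligand Angpt2 and its receptor Tek the ratio ran from 0.805 in Hi 3 to 4.59 in Lo 3, and between Vegfa and its receptor Kdr from 5.80 in Lo 4 to 34.0 in Lo 3. The ligand-to-receptor ratio therefore spanned a 5.71-fold range for the angiopoietin pair and a 5.87-fold range for the VEGF pair. The ratio of the VEGF receptors spanned a 1.56-fold range.

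Whether Lo and Hi tumors differed in these genes was tested with edgeR's quasi-likelihood test over 18883 genes, with Benjamini-Hochberg adjustment. None of the 10 genes was called at an adjusted p under 0.05, where 0.0% of all genes tested were called. DESeq2 called 1 gene among all, no member, and 1045 genes had an unadjusted p under 0.05 in edgeR, none of them a member. In bulk RNA of this kind, fewer cells of a type and less RNA per cell cannot be told apart. The members' own values are given here by group.

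Among the adhesion genes, Pecam1 lay between 13.8 and 36.5 CPM in the Lo tumors (median 23.4) and between 15.8 and 29.4 CPM in the Hi tumors (median 21.9). Cdh5 lay between 15.4 and 29.7 CPM in Lo (median 20.6) and between 14.2 and 29.2 CPM in Hi (median 18). The Hi range lay inside the Lo range for Pecam1, and the groups covered nearly the same range for Cdh5. The log2 fold changes (Hi relative to Lo) were -0.12 (SE 0.151) for Pecam1 and -0.12 (SE 0.159) for Cdh5, each with an adjusted p of 0.9996 from edgeR.

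Of the VEGF receptor genes, Kdr lay between 10.3 and 25.3 CPM in Lo (median 15.8) and between 11.2 and 22.1 CPM in Hi (median 14.7). Flt1 lay between 10.9 and 27.9 CPM in Lo (median 17.2) and between 12.4 and 23.1 CPM in Hi (median 17.04). Their log2 fold changes were -0.13 (SE 0.147) and -0.10 (SE 0.150). Of the angiopoietin receptor genes, Tek lay between 1.55 and 6.47 CPM in Lo (median 3.47) and between 2.10 and 4.94 CPM in Hi (median 3.04). Tie1 lay between 5.25 and 15.4 CPM in Lo (median 10.5) and between 6.83 and 14.1 CPM in Hi (median 9.42). The groups overlapped for all 4 receptor genes, and the Hi range lay inside the Lo range for each of them.

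Eng lay between 16.2 and 38.7 CPM in Lo (median 34.4) and between 19.4 and 102.3 CPM in Hi (median 30.2), with a log2 fold change of 0.16 (SE 0.261) that was -0.12 without tumor Hi 1 (neither called). Vwf lay between 1.08 and 2.77 CPM in Lo (median 1.82) and between 0.799 and 3.43 CPM in Hi (median 2.01). The highest value of both genes was in tumor Hi 1, and the groups overlapped. The ligands overlapped as well. Vegfa lay between 83.0 and 233.6 CPM in Lo (median 132.1) and between 75.3 and 248.2 CPM in Hi (median 131.4). Angpt2 lay between 2.32 and 6.27 CPM in Lo (median 5.25) and between 2.17 and 7.43 CPM in Hi (median 3.97). Over the 10 members the log2 fold changes ran from -0.16 (Angpt2) to 0.16 (Eng), with 8 below 0 and 2 above.

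Since the groups did not separate the members, they were next compared along the tumors themselves. The question was which genes rose and fell with Pecam1, the pan-endothelial adhesion gene, from tumor to tumor. The slope of each gene's log2 level on the log2 CPM of Pecam1 was fitted over all 20 tumors with edgeR's quasi-likelihood test, on 17491 genes. A slope of 1 means that a gene's level changed in proportion to that of Pecam1. Of these genes, 1.2% were called, 1.19% with a positive slope (208 genes) and 0.0114% with a negative one (2 genes). Among the 9 other members 5 were called, all with a positive slope, namely Cdh5, Tie1, Flt1, Kdr and Tek.

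Cdh5 tracked Pecam1 most closely, with a slope of 0.97 (SE 0.0996, adjusted p = 2.91e-05). The Tie1 slope was 0.99 (SE 0.137, adjusted p = 0.00031), that of Flt1 0.80 (SE 0.129, adjusted p = 0.00127) and that of Kdr 0.78 (SE 0.136, adjusted p = 0.00272). Tek had a slope of 0.97 with a wider error (SE 0.211, adjusted p = 0.0186). With Cdh5 in place of Pecam1 as the measure of the tumors, Tek was no longer called (slope 0.81, adjusted p = 0.0995 in edgeR), while Kdr, Flt1 and Tie1 were. Among Pecam1, Cdh5, Kdr, Flt1 and Tie1 the 10 pairwise correlations of log2 CPM over the tumors had Pearson's r between 0.780 and 0.923, with a median of 0.837. Tek was less close to them, with r from 0.469 with Flt1 to 0.729 with Kdr. The 45 pairs of all 10 members ran from -0.579 to 0.923.

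The other members were not called along Pecam1. Vwf had a slope of 0.89 (SE 0.271, adjusted p = 0.141), Eng one of 0.71 (SE 0.391, adjusted p = 0.649) and Angpt2 one of 0.62 (SE 0.253, adjusted p = 0.409). None of these passed the threshold, and their slopes had larger errors than those of the called genes. Without tumor Hi 1 the slope of Eng was 0.75 (SE 0.229, adjusted p = 0.152). Vegfa, the ligand, had a slope of -0.34 (SE 0.305, adjusted p = 0.848), and its sign turned to 0.05 without the 2 tumors farthest from the median Pecam1 level, Lo 3 and Lo 4. The r of Angpt2 with Pecam1 was 0.513 over all tumors, 0.361 within Lo and 0.691 within Hi. Without Lo 3 and Lo 4 it was 0.706, where Flt1 had 0.741, Kdr 0.666 and Tek 0.505.

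**Figure D2:**
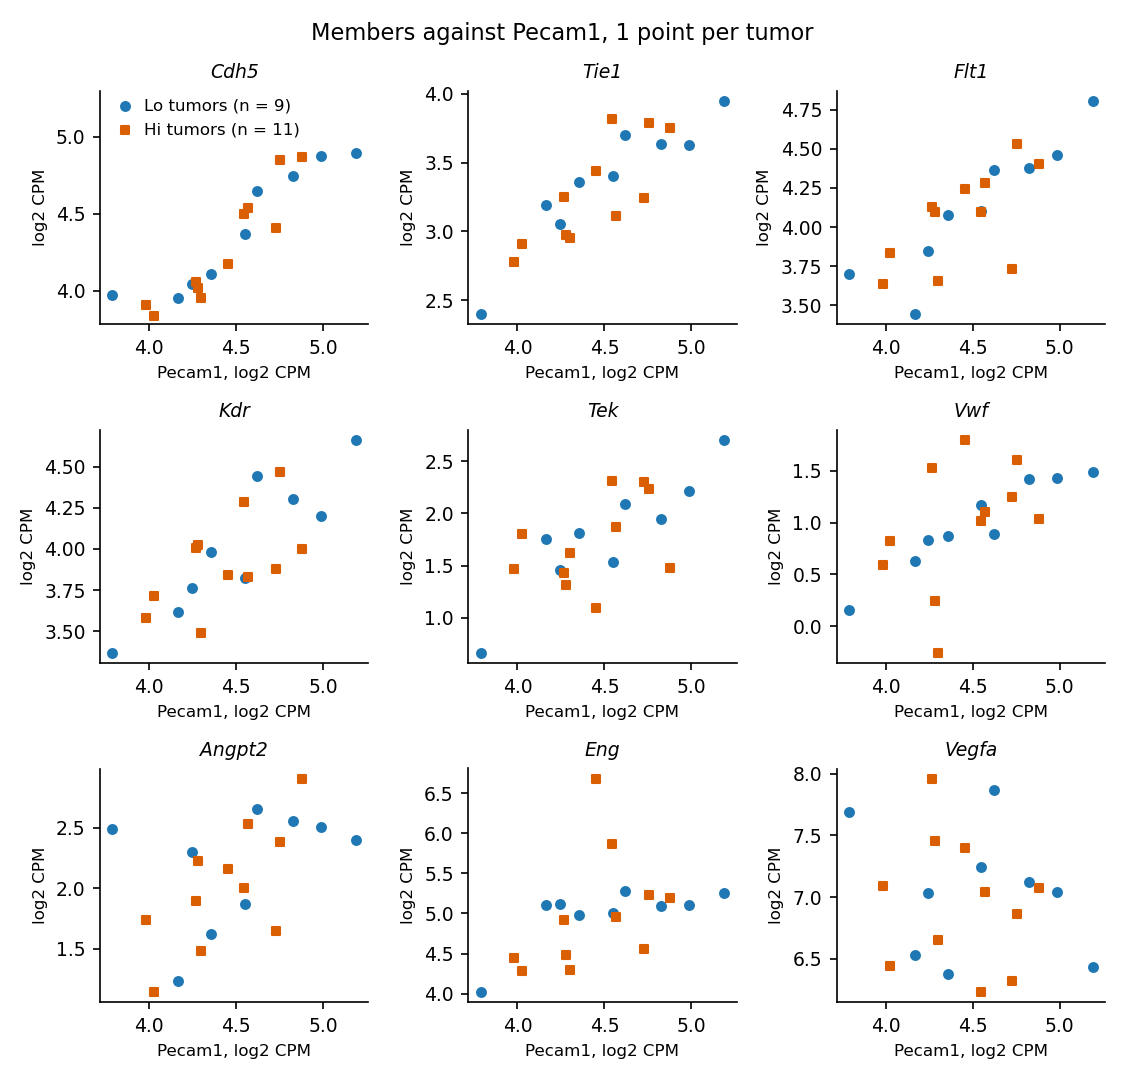
Level of each other member against Pecam1, both in log2 CPM, 1 point per tumor (Lo in blue circles, Hi in orange squares). Cdh5, Tie1, Flt1, Kdr and Tek rise with Pecam1. The Eng panel shows Hi 1 and Hi 5 above the rest, and the slope of Vegfa was -0.34 (SE 0.305).

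The calls leaned on those 2 tumors at the ends of the Pecam1 range. Without both, 31 genes were called in all, and among the members Cdh5 and Tie1 were, while Kdr had an adjusted p of 0.239, Flt1 of 0.0709 and Tek of 0.879 with slopes of 0.67, 0.80 and 0.66. Leaving out Lo 3 alone left 106 genes called and Lo 4 alone 98, and Tek lost its call in either case (adjusted p = 0.122 and 0.198). Leaving out any other tumor kept all 5 calls.

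Most genes of the same kind outside the set rose with Pecam1 too. Of 32 further genes with known endothelial expression, 21 rose with Pecam1, none fell, and all 32 had a positive slope, with a median of 0.81 against 0.01 over all genes tested. Among them Emcn, the sialomucin endomucin of capillaries and veins, had a slope of 0.95 (SE 0.126) and Esam, a junction protein, one of 0.95 (SE 0.117). Plvap, which forms the diaphragms of fenestrated endothelium, had a slope of 1.01 (SE 0.138), and the endothelial transcription factor gene Erg one of 0.96 (SE 0.143). The steepest slopes were those of Sox7, another transcription factor gene, at 1.30 (SE 0.247), and of Aplnr, the apelin receptor, at 1.29 (SE 0.223). Genes that did not pass included Cldn5, a tight junction gene (slope 1.05, adjusted p = 0.082), Nos3, the endothelial nitric oxide synthase (0.66, adjusted p = 0.109), and Esm1 (0.62, adjusted p = 0.524). The flattest slopes were those of Ramp2, which forms the adrenomedullin receptor with its partner (0.17, adjusted p = 0.576, at a mean of 74.7 CPM), of Acvrl1, the receptor ALK1 (0.19, adjusted p = 0.595), and of the transcription factor gene Lyl1 (0.22, adjusted p = 0.863). The count was 15 without Lo 3, 18 without Lo 4 and 8 without both, with all 32 slopes still positive each time.

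Of 11 further genes of the VEGF and angiopoietin pathways, 3 rose with Pecam1 and none fell. These were the VEGF coreceptors Nrp1 (slope 0.59, SE 0.109) and Nrp2 (0.62, SE 0.106), and Ptprb (0.81, SE 0.121), the endothelial phosphatase that acts on TIE2 and that is also among the 32 above. The ligand genes did not pass, with slopes of 0.11 for Vegfb, 0.81 for Vegfc, 0.20 for Pgf and 0.49 for Angpt1. Without Lo 3 and Lo 4 none of the 11 was called. Of 8 genes of vascular Notch signaling 1 rose, Heyl (0.81, SE 0.168), while the ligand gene Dll4 had a slope of 0.51 (adjusted p = 0.271). None of 20 hypoxia-responsive genes was called, and their median slope was -0.01.

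A minority of the genes of other vascular and stromal cells were called along Pecam1, but most of their slopes were positive too. Slopes were positive for 11 of 12 pericyte and mural genes (median 0.49) and 8 of 8 fibroblast genes (median 0.77). So were those of all 8 platelet and red cell genes tested (median 0.99), all 5 adipocyte genes tested (median 1.35) and 6 of 7 leukocyte genes (median 0.15). Of 12 pericyte and mural cell genes 3 rose with Pecam1, namely Rgs5 (slope 0.84, SE 0.102), Pdgfrb (0.67, SE 0.135) and Acta2 (0.70, SE 0.161). Notch3 (-0.09) and Cspg4 (0.23, adjusted p = 0.840), 2 other genes of that list, did not pass. Of 8 fibroblast genes 3 rose, namely Postn (0.84, SE 0.167), Col1a1 (0.81, SE 0.198) and Fap (0.73, SE 0.178), and none did without Lo 3 and Lo 4. Pdgfra, a receptor gene of that list, had a slope of 0.36 (adjusted p = 0.751). Leaving out 1 tumor at a time left 0 to 6 of the fibroblast genes and 1 to 4 of the mural genes called. The summed level of the fibroblast genes ran from 696.1 CPM in Lo 3 to 2586 CPM in Lo 4, the same 2 tumors that held the lowest and highest Pecam1. PECAM1 is also carried by platelets and leukocytes. None of the 7 leukocyte genes tested and none of 8 platelet and red cell genes was called. Summed over all 10 listed genes of each kind, untested ones included, their levels were 125.9 to 197.5 CPM and 41.3 to 253.0 CPM. With Ptprc, the pan-leukocyte gene CD45, added as a term 236 genes were called, among them 21 of the same list of 32. Each list was also averaged over its tested genes as a mean z-score, with log2 CPM scaled to each gene's own mean and SD. For the platelet and red cell genes this mean z-score nevertheless had an r of 0.575 with Pecam1 (permutation p = 0.00853, rho 0.573 with p = 0.01). For the 5 adipocyte genes tested, none called, the r was 0.551 (permutation p = 0.0122, rho 0.611 with p = 0.00505). The r was 0.741 for the mural genes (permutation p = 0.0002, rho 0.765 with p = 0.00017) and 0.667 for the fibroblast genes (permutation p = 0.00151, rho 0.529 with p = 0.0181), the latter 0.408 without Lo 3 and Lo 4. None of 8 epithelial genes was called. Of 5 long noncoding RNAs retained in the nucleus, none was called and 4 had negative slopes, with a median of -0.55 against 0.01 over all genes. Among them Kcnq1ot1 had a slope of -0.94 (adjusted p = 0.359), Malat1 one of -0.65 (adjusted p = 0.443) and Xist one of -0.55 (adjusted p = 0.288). The mean z-score of the 5 RNAs had an r of -0.359 with Pecam1 (permutation p = 0.121, rho -0.287 with p = 0.22). The part of stromal, blood and fat content and of RNA composition in the slopes was not tested.

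**Figure D3:**
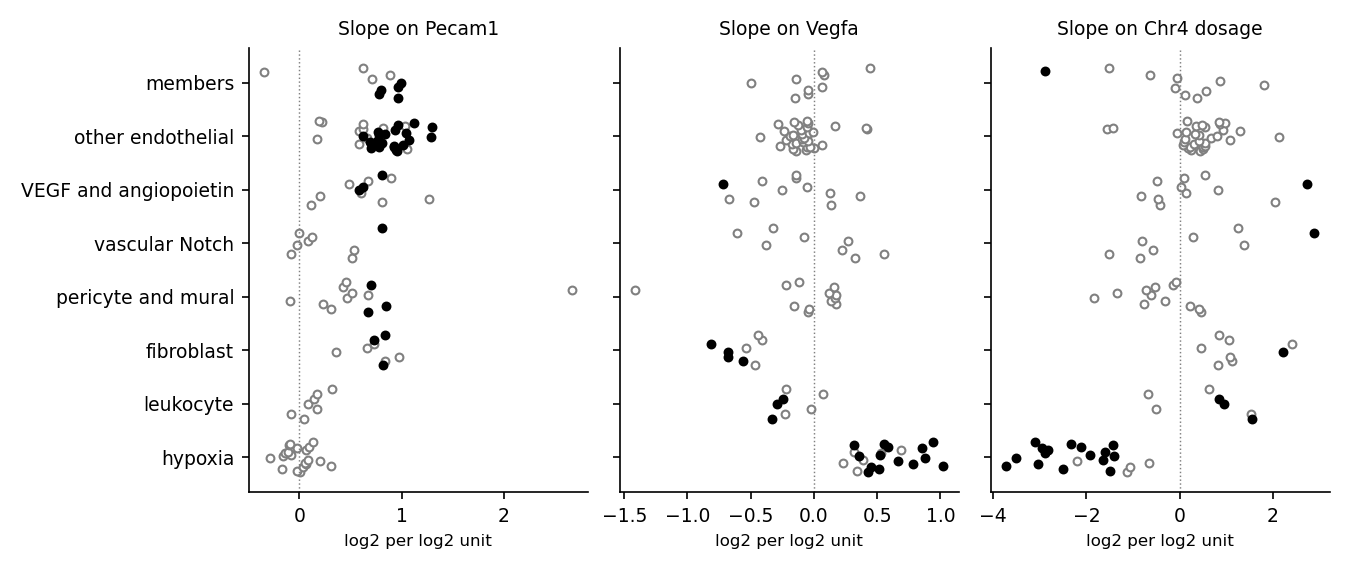
Slope of each gene of 8 lists on Pecam1, on Vegfa and on the Chr4 dosage, in log2 units per log2 unit, 1 point per gene tested, with genes called at an adjusted p under 0.05 in black and others open. The endothelial, the VEGF and angiopoietin, and the fibroblast lists lie to the right of 0 for Pecam1. The hypoxia list lies to the right of 0 for Vegfa and to the left for the Chr4 dosage.

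The genes with the highest r with Pecam1 among genes whose log2 CPM averaged 1 or more were, after Cdh5 (r = 0.923), Mmrn2 (0.912), Esam (0.902), Bcl6b (0.897), Emcn (0.889), Rgs5 (0.879), Tshz2 (0.877), Adgrl4 (listed as Eltd1, 0.877), Rasip1 (0.874) and Cd34 (0.874). For single members the closest genes were often shared within the set or the lists. Cdh5 was nearest to Adgrl4 (r = 0.926), Kdr to Fgd5 (0.931), Tie1 to Plxnd1 (0.963) and Rasip1 (0.952), Flt1 to Pdgfrb (0.889) and Tek to Aplnr (0.882). Angpt2 was nearest to Esm1, which encodes endocan (0.865), and to the Notch ligand gene Dll4 (0.839). Its r was 0.703 with Cdh5, 0.698 with Flt1 and 0.01 with Tek. The nearest genes of Eng were 2610002J02Rik (0.813), Crtap (0.754) and Anapc11 (0.731), and that of Vwf was Pltp (0.799), none of which is in the endothelial list. These correlations are over the 20 tumors, were ranked among all such genes, and are given as a description.

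The promoter sequences of members that moved together, and of Vegfa, which did not move with them, are shown for comparison. RefSeq transcription starts on GRCm38.p6 (mm10) were matched for 6 members, Kdr, Flt1, Tek, Tie1, Eng and Vegfa. Each stretch holds the 250 bases before the start, in the direction of transcription, with capitals marking any of 5 motifs searched on both strands: the ETS core AGGAAG, the GATA core GATAAG, the hypoxia response core ACGTG, the GC box GGGCGG and the TATA box TATAAA. None of the motifs overlapped another.
Flt1, chr5:147726012-147726261, minus strand: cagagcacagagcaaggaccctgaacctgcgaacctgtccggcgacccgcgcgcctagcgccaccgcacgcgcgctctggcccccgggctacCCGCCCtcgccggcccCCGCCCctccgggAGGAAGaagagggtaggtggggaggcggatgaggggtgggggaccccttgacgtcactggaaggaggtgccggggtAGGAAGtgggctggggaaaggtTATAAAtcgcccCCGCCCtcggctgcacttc
Kdr, chr5:75978456-75978705, minus strand: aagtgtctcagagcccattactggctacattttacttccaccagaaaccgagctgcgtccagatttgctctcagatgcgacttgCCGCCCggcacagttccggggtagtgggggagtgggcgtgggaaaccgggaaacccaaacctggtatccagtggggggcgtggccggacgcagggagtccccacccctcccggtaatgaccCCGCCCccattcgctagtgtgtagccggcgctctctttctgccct
Tek, chr4:94739039-94739288, plus strand: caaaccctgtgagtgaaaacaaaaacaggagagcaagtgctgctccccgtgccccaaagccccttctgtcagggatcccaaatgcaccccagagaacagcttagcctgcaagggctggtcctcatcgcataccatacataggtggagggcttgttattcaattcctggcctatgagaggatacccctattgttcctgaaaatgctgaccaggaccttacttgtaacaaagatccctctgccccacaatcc
Vegfa, first of 2 starts, chr17:46032378-46032627, minus strand: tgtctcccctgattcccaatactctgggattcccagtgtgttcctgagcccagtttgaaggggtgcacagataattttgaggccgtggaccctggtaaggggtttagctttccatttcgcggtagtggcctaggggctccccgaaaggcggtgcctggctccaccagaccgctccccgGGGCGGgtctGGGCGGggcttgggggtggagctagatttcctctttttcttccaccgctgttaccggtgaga
Vegfa, second of 2 starts, chr17:46025164-46025413, minus strand: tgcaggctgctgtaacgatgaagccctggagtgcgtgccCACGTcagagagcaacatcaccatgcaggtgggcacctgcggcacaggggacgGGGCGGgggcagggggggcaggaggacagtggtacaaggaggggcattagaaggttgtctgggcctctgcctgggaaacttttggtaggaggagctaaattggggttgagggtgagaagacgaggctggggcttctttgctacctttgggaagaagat

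Flt1 had 2 ETS cores, 3 GC boxes and a TATA box beginning 31 bases before the start. Kdr had 2 GC boxes, Vegfa had 2 GC boxes at its first start, and Tek had none of the motifs. At its second start, which lies within the gene, Vegfa had 1 GC box and 1 hypoxia response core. This core lay 211 to 207 bases before the start and on the opposite strand, the 1 such core in the windows of the 6 members. That window lies wholly downstream of the first start, inside the gene's own transcribed sequence. A regulatory role of the match was not tested. Tie1 had 1 ETS core and Eng 2. Over 32851 promoters of the same length, 29.5% held the ETS core, 6.55% the GATA core, 16.6% the hypoxia core, 32.7% the GC box and 12.4% the TATA box. No motif was in the windows of all 4 receptor genes. GC content was 70.4% for Flt1, 61.6% for Kdr, 59.2% and 59.6% for the 2 starts of Vegfa and 51.2% for Tek, against a median of 52.4%. A match is only a match of letters, and a missing one holds for these windows alone.

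Vegfa varied 3.30-fold in CPM between tumors, and the next question was what varied with it. On 17491 genes, 4.19% were called for a slope on the log2 CPM of Vegfa, 1.31% with a positive slope (230 genes) and 2.88% with a negative one (503 genes). None of the 9 other members was called. Kdr and Flt1, the receptors of VEGF-A, had slopes of -0.04 (SE 0.144, adjusted p = 0.914) and 0.06 (SE 0.150, adjusted p = 0.877). Pecam1 had -0.15 (SE 0.150) and Cdh5 -0.05 (SE 0.163). These 4 slopes were smaller than their errors or about equal to them.

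The angiopoietin pair lay on opposite sides of 0 along Vegfa. Tek had a slope of -0.50 (SE 0.169, adjusted p = 0.0988) and Angpt2 one of 0.45 (SE 0.192, adjusted p = 0.217). Tumor Lo 3 had 206.7 CPM of Vegfa and 1.55 CPM of Tek, and Hi 5 had 75.3 and 4.94 CPM. Tumor Lo 8 went against this, with 233.6 CPM of Vegfa and 4.22 CPM of Tek, as did Hi 2, with 100.4 and 3.04 CPM. Over the 20 tumors Tek and Vegfa had a Pearson's r of -0.579 (permutation p = 0.00752) and a Spearman's rho of -0.639 (p = 0.00329), and r was -0.747 without Hi 10 and Lo 8, the tumors farthest from the median of Vegfa. Within the Lo tumors r was -0.446 and within the Hi tumors -0.760. Tek was called without these 2 tumors (slope -0.87, adjusted p = 0.0209 in edgeR) and without Lo 8 alone (slope -0.71, adjusted p = 0.0217). It was called in only 1 of the 20 fits leaving out 1 tumor (slopes -0.71 to -0.40, adjusted p up to 0.226 in edgeR). Of 8 other alternatives only 1 called it, with slopes from -0.87 to -0.35 and an adjusted p up to 0.516 (edgeR or DESeq2). For Angpt2 and Vegfa, r was 0.483 (permutation p = 0.0311) and rho 0.438 (p = 0.0544). These 2 relations are among 28 computed in the same way between members and Pecam1, Vegfa or the Chr4 dosage.

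Hypoxia-responsive genes rose with Vegfa. Of 20 such genes 14 were called with a positive slope, none with a negative one, and all 20 slopes were positive, with a median of 0.53 against 0.01 over all genes. Adm, the vasoactive peptide adrenomedullin, had a slope of 1.02 (SE 0.261), Ddit4, an inhibitor of mTORC1, one of 0.94 (SE 0.169), and Ankrd37 one of 0.87 (SE 0.175). Ero1a, an oxidase of the endoplasmic reticulum, had one of 0.85 (SE 0.143) and Bnip3, a mitophagy receptor, one of 0.78 (SE 0.181). Slopes were smaller for the oxygen sensor gene Egln1 (0.58, SE 0.10), the glycolytic gene Pgk1 (0.52, SE 0.130), the carbonic anhydrase gene Car9 (0.45, SE 0.094) and the glucose transporter gene Slc2a1 (0.43, SE 0.109). The 6 that did not pass were Ldha, Egln3, Pdk1, Hk2, Aldoa and Pfkfb3, with slopes between 0.23 and 0.69. Leaving out 1 tumor at a time left 9 to 16 of the 20 called, the fewest without Hi 5, and all 20 slopes stayed positive.

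None of the 32 endothelial genes was called along Vegfa, and 5 of the 32 slopes were above 0, with a median of -0.09. Among the 11 pathway genes 1 fell, Angpt1, the ligand that activates TIE2 (slope -0.72, SE 0.128, adjusted p = 0.00341). Some stromal, leukocyte and epithelial genes fell. Of 8 fibroblast genes 4 fell, Col1a2, Col3a1, Pdgfra and Lum, with slopes between -0.81 and -0.56, and of 7 leukocyte genes 3 fell, Ptprc, Adgre1 and Csf1r, with slopes between -0.33 and -0.25. Of 4 lymphatic genes tested 2 fell, Prox1 and Pdpn (-1.0 and -0.74), and 1 had a positive slope, Flt4 (0.13). Of 8 epithelial genes 1 fell, the keratin gene Krt19 (slope -0.88, SE 0.244, adjusted p = 0.0421). Leaving out 1 tumor at a time left 1 to 5 of the fibroblast genes, 2 or 3 of the leukocyte genes and 0 or 1 of the epithelial genes called. None of the 5 nuclear RNAs was called, and their median slope was 0.30. The mean z-score of the leukocyte genes tested had an r of -0.650 with Vegfa (permutation p = 0.00207, rho -0.579 with p = 0.00851). For the fibroblast genes this r was -0.653 (permutation p = 0.00163, rho -0.720 with p = 0.00051). The part of cell content in the Vegfa relations was not tested.

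The genes with the highest r with Vegfa were Vstm5 (0.893), Gm15998 (0.873), Eno2 (0.870), Matk (0.870) and Fam160b1 (0.847). Eno2 encodes a glycolytic enolase. Gm15998 lies within Efna3, which was itself near the top (r = 0.843), so the counts of this pair are uncertain. The lowest r were those of Pole3 (-0.877), Snapc5 (-0.871), Prdx1 (-0.855), Pdgfra (-0.852) and Rab29 (-0.852). Of these, Pole3 and Prdx1 lie on chr4, like Tek and Tie1. The number of genes called along Vegfa fell to 485 without Lo 3 and to 344 without Hi 5.

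**Figure D4:**
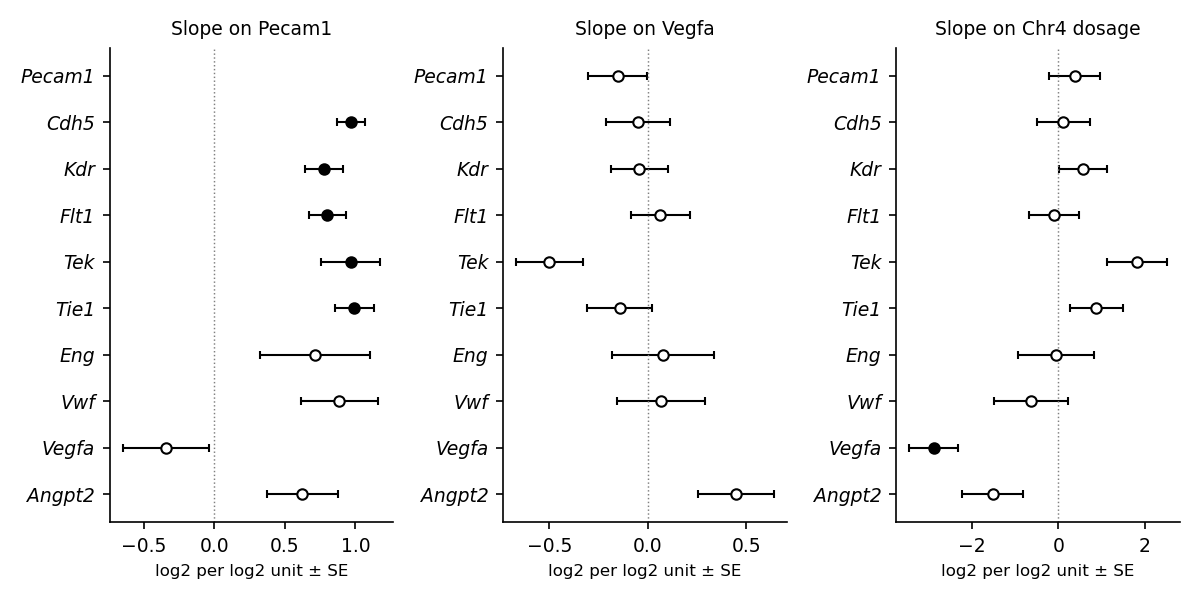
Slope of each member on Pecam1, Vegfa and the Chr4 dosage, in log2 units per log2 unit, ± SE over 20 tumors. Filled points have an adjusted p under 0.05. Cdh5, Kdr, Flt1, Tek and Tie1 are filled for Pecam1, no member for Vegfa, and Vegfa alone for the Chr4 dosage.

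Chromosome 4, which carries Tek and Tie1, is one whose copy content the study examined by karyotype. The study reported the clonal loss of a Chr4 copy in every tumor karyotyped. In its RNA data, alleles expressed along the whole chromosome were skewed toward FVB. Its dosage was estimated for each tumor as the median log2 level of 738 chr4 genes relative to the median tumor, with Tek and Tie1 left out, minus the same for all autosomal genes. The Chr4 dosage ran from -0.21 in Lo 2 to 0.37 in Hi 5. It places the tumors by chr4 RNA relative to each other and gives no copy number. Fitted on 17492 genes, 6.11% were called for a slope on it, 4.49% with a positive and 1.61% with a negative slope. Of the chr4 genes 36.0% were called higher and 0.547% lower, and of the genes on other chromosomes 2.38% and 1.68%. The median slope was 0.94 for chr4 genes and -0.09 for the others, so a typical chr4 gene followed the dosage nearly in proportion. Since chr4 genes make up the dosage, this checks the measure and is not a result.

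Tek had a slope of 1.82 (SE 0.690, adjusted p = 0.138) and Tie1 one of 0.88 (SE 0.611, adjusted p = 0.514). Neither was called. In Hi 5, the tumor with the highest dosage, Tek was at 4.94 CPM and Tie1 at 14.1 CPM, while in Lo 2 and Lo 3, the tumors with the lowest (-0.21 and -0.19), Tek was at 2.71 and 1.55 CPM and Tie1 at 8.28 and 5.25 CPM. Over all tumors Tek had an r of 0.535 with the dosage (permutation p = 0.0143, rho 0.556 with p = 0.0121) and Tie1 one of 0.310 (permutation p = 0.185, rho 0.202 with p = 0.391). Without Hi 5 and Lo 2 these were 0.477 and 0.120.

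The 1 member called along the Chr4 dosage was Vegfa, which lies on chr17, with a slope of -2.89 (SE 0.568, adjusted p = 0.00232), where 1.61% of all genes tested, and 1.68% of those on other chromosomes than chr4, were called lower. It was called in all 20 fits that left out 1 tumor, with slopes from -3.41 to -2.68, and in the 8 other fits. The r was -0.738 (permutation p = 0.00011) and rho -0.735 (p = 0.00035), and r was -0.791 without Hi 5 and Lo 2. Within the Lo tumors r was -0.792 and within the Hi tumors -0.696. At the upper end of the dosage, Vegfa was at 75.3 CPM in Hi 5, 100.4 CPM in Hi 2 and 92.5 CPM in Lo 7 (dosage 0.37, 0.17 and 0.16). At the lower end it was at 131.3 CPM in Lo 2, 206.7 CPM in Lo 3 and 168.7 CPM in Hi 1 (dosage -0.21, -0.19 and -0.13), and the highest level, 248.2 CPM in Hi 10, came at a dosage of -0.06. Angpt2 had a slope of -1.52 (SE 0.706, adjusted p = 0.258) and was called only when Pecam1 was added as a term (-1.94, adjusted p = 0.0388). The other 6 members had slopes between -0.63 and 0.56, all below the size of their error or about equal to it.

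The hypoxia-responsive genes had slopes on the Chr4 dosage opposite in sign to the median slope of the chr4 genes. Of the 20, 16 fell with the dosage, none rose and all 20 slopes were negative, with a median of -2.15 against -0.06 over all genes. Pgk1 had a slope of -2.50 (SE 0.318, adjusted p = 3.98e-05), Hk2 one of -2.89 (SE 0.415), Ankrd37 one of -3.51 (SE 0.560) and Adm one of -3.72 (SE 0.894). Of the 11 pathway genes 1 rose, Angpt1 (2.72, SE 0.441, adjusted p = 0.000374), and 7 of the 11 slopes were positive. Of 8 vascular Notch genes 1 rose, the Notch target gene Hey2 (2.89, SE 0.658), and 4 of the 8 slopes were positive. Of 4 lymphatic genes tested 1 rose, Prox1 (3.54, SE 0.817), and 3 of the 4 slopes were positive. None of the 32 endothelial genes was called, and 29 of the 32 slopes were positive, with a median of 0.43. Of 7 leukocyte genes 3 rose, Ptprc (1.55, SE 0.300), Adgre1 (0.95, SE 0.276) and Csf1r (0.84, SE 0.223). Cd68 (-0.68) and Itgam (-0.51) of that list had negative slopes, neither called. Of 8 fibroblast genes 1 rose, Pdgfra (2.23, SE 0.443), and all 8 slopes were positive. Of 8 epithelial genes 1 rose, Krt19 (3.55, SE 0.852, adjusted p = 0.0112). The part of leukocyte, stromal and epithelial content was not tested. The share of the hypoxia genes called lower was 13 of 20 without Hi 5, and the number of all genes called was then 532.

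The fits along Vegfa and along the Chr4 dosage used the same 20 tumors. Of the 733 genes called along Vegfa, 62.5% were also called along the dosage, and of the 1068 called along the dosage 42.9% were also called along Vegfa. With the Chr4 dosage added as a term, no gene was called along Vegfa in edgeR, with 2620 at an unadjusted p under 0.05, and 19 of the 20 hypoxia genes kept a positive slope, with a median of 0.32. With Vegfa added as a term, 211 genes were called along the dosage, 2 hypoxia genes among them.

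**Figure D5:**
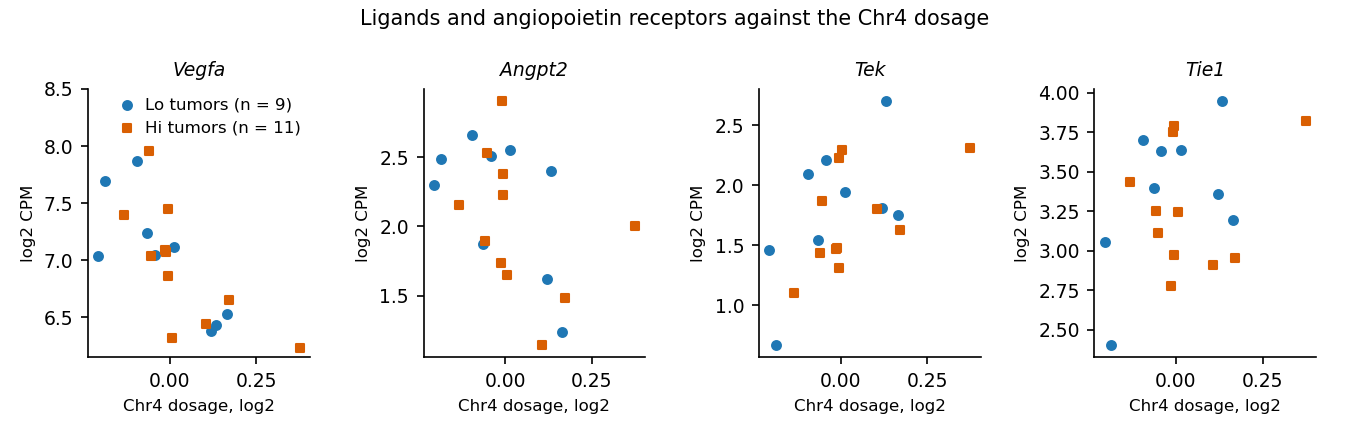
Levels of Vegfa, Angpt2, Tek and Tie1 in log2 CPM against the Chr4 dosage (log2), 1 point per tumor (Lo in blue circles, Hi in orange squares). Vegfa falls with the dosage in both groups (r = -0.792 in Lo and -0.696 in Hi), and tumor Hi 5 stands to the right at 0.37.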

How the data were processed

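RNA of 20 breast tumors, 1 per mouse, was sequenced from TruSeq mRNA libraries, and per the labels and the study's methods reads were trimmed, aligned to mm10 with TopHat2 2.0.12 and counted with featureCounts 1.4.4. The deposited values are raw counts of reads per gene, made by the authors without normalization, 1 column per tumor and nothing pooled. The annotation release and strand setting are not given in the sources used here. Listed gene lengths lay within 5% of the GENCODE M21 exon union for 81.3% of matched genes, Kdr, Flt1 and Cdh5 not among them. No 2 tumors had counts that agreed within sampling noise. The ranges of total counts limit the precision of low genes such as Vwf, and counting error is included in the fits.

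Computed from the counts were RPKM (total count and listed length) and CPM with TMM factors (prior count of 2 on the log2 scale). Tests used edgeR 4.0.16 (filterByExpr, quasi-likelihood test, Benjamini-Hochberg adjustment over all genes tested, threshold 0.05) in R 4.3.3, for Lo against Hi and for slopes on log2 CPM of Pecam1, log2 CPM of Vegfa and the Chr4 dosage. Correlations used two-sided tests of 100000 permutations in Python 3.11.15 with numpy 2.4.6, pandas 2.3.3 and scipy 1.17.1. In simulated data of 18883 genes with 200 changed by 1 log2 unit, the group test recovered 184 and called 15 unchanged genes. The slope test, with 1 log2 unit planted per SD of the Chr4 dosage, recovered 198 and called 14. Changed genes were drawn from those with higher counts, and each gene was simulated independently. The slopes of the report are per log2 unit, another scale, so these recoveries do not give the power of its fits for smaller effects. Genes were named as members, as members of the lists, or as the 10 genes with the highest r with Pecam1 and with Vegfa, the 5 with the lowest r with Vegfa and the 3 nearest to each other member, among genes whose log2 CPM averaged 1 or more. The members, lists and tests were chosen with earlier results of these data known. Alternatives were DESeq2 1.42.0, RLE factors, no filter on low counts, leaving out the ribosomal RNA locus, leaving out tumors, and further terms in the fits. The fits leaving out 1 tumor along Pecam1, Vegfa and the dosage, the terms for the dosage and for Vegfa, the replicate block in these fits and the exon union lengths were chosen after seeing the data.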

Additional observations from a re-analysis of the deposited data

Results flagged for a closer look

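In the 9 Lo tumors, the Eng level of tumor Lo 3, 16.2 CPM, lay far below the other 8, with a gap of 0.676 of the group's range against a limit of 0.493 for groups of this size. It was the 1 value flagged among the 10 genes tested in this way, where chance would flag 0.5. The 11 Hi tumors were not tested in this way, and Eng of tumor Hi 1, at 102.3 CPM against 58.1 CPM in the next Hi tumor, is therefore given as a value alone. Lo 3 also had the lowest Pecam1, Kdr, Tek and Tie1 of all 20 tumors.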

How the results depend on the processing

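None of the alternatives run brought a member past the threshold between Lo and Hi. The number of genes called there was 0 in edgeR and 1 with DESeq2 or without the filter on low counts, and leaving out 1 tumor gave 0 to 0. Along Pecam1 the 210 genes called became 331 with DESeq2, 31 without the 2 farthest tumors, 130 with Cdh5 in place of Pecam1 and 98 to 312 when 1 tumor was left out, and without the filter on low counts 172 rose and 42 fell. Along Vegfa the 733 became 1173 with DESeq2, 0 with the Chr4 dosage as a term and 344 to 806 when 1 tumor was left out. Along the Chr4 dosage the 1068 became 533 without the 2 farthest tumors, 211 with Vegfa as a term and 532 to 1110 when 1 tumor was left out. Low totals limit Vwf and Tek most. The causes of these changes were not tested.

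Lo and Hi tumors with the same number correlated between -0.386 and 0.228 (over 0.1 in 3 of 9 pairs). No source used here says that the number pairs them. Without a comparison with unmatched pairs, these values do not settle whether it does. With this number as a replicate block, 0 genes were called between Lo and Hi, 92 along Pecam1 (33 higher and 59 lower, against 208 and 2 without it), 34 along Vegfa and 285 along the dosage, and Kdr, Flt1, Tek and Tie1 were no longer called along Pecam1. Under this replicate block the sign turned for Eng (-0.11) and Vwf (-0.069) between Lo and Hi, Vwf along Vegfa (-0.078) and Cdh5 along the dosage (-0.35).

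Of 1098 values of single genes under alternatives, 1039 kept their sign and side of the threshold, 11 lost and 3 gained a call, and 45 turned sign, none of them called. Signs turned without the 2 farthest tumors for Vegfa along Pecam1 (0.051), Vwf along Vegfa (-0.037) and Cdh5 along the dosage (-0.47). With the Chr4 dosage as a term along Vegfa they turned for Kdr (0.14), Tie1 (0.061) and Vwf (-0.11). Along the dosage they turned with Pecam1 as a term for Cdh5 (-0.28), and with Vegfa as a term for Pecam1 (-0.11), Cdh5 (-0.054), Flt1 (0.18) and Eng (0.35). The r of Eng with Vegfa was 0.0301 on log2(RPKM + 1). With 1 tumor left out, values between Lo and Hi ran from -0.17 to 0.0021 for Flt1, -0.22 to 0.028 for Tek, -0.12 to 0.23 for Eng, -0.058 to 0.13 for Vwf and -0.21 to 0.047 for Vegfa. Along Vegfa they ran from -0.13 to 0.031 for Cdh5, -0.17 to 0.059 for Kdr, -0.18 to 0.29 for Eng and -0.064 to 0.18 for Vwf. Along the dosage they ran from -0.0056 to 0.60 for Pecam1, -0.14 to 0.33 for Cdh5, -0.47 to 0.18 for Flt1 and -1.90 to 1.12 for Eng.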
